A study of Mus musculus with 15 samples.

Results

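Integrins and laminins were examined in lung cells cut out by laser capture microdissection from mice that carry a K-RasG12V knock-in allele. The genes were chosen by symbol alone: every integrin alpha subunit (Itga), integrin beta subunit (Itgb) and laminin chain (Lama, Lamb, Lamc) that a probe set of the array names without naming another gene. This gave 34 genes of the 18193 measured, namely 16 integrin alpha subunits, 8 integrin beta subunits and 10 laminin chains, read by 73 probe sets. Itga11, Itgad and Lamb4 have no such probe set and were not analysed here.

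All 15 arrays came from frozen lung sections. These were made 3 months after the lungs had been infected in vivo with adeno-Cre, a virus that delivers the Cre recombinase, and normal and lesion cells alike were cut from lungs of knock-in animals. The K-RasG12V allele also carries a colour marker, by which hyperplastic lesions of about 500 cells were found. Normal cells were taken from the same sections (n = 8), and the 7 lesions are labelled H1 (n = 3) or H2 (n = 4). The basis of the H1 and H2 labels, the promoter that drives Cre, the age of the mice and the number of mice behind the 15 arrays were not stated in these sources. Some arrays may share an animal, in which case p-values over arrays can be too small.

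An integrin is a pair of 1 alpha and 1 beta subunit that spans the cell membrane, binds matrix proteins outside and couples to the actin cytoskeleton inside. A laminin is a cross-shaped trimer of an alpha, a beta and a gamma chain, and laminins form the sheet of the basement membrane on which alveolar epithelium and capillary endothelium sit. In the lung, integrins anchor epithelial cells to that sheet, hold fibroblasts in the interstitium, let leukocytes stick and crawl, and, for some alphav and alpha8 dimers, release active TGF-beta from its latent complex.

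Values are log2 expression levels as deposited, so a difference of 1 is a doubling on the array's scale. A gene was called when limma's adjusted p, corrected over all 18193 genes by the Benjamini-Hochberg method, was under 0.05. The arrays differed in how widely their gene values spread. The standard deviation of the gene values within an array was 1.14 to 1.67 in normal cells, 1.31 to 1.49 in H1 and 1.52 to 1.78 in H2. The 3' minus 5' difference of the Actb control probe sets, a measure of RNA integrity, was -1.60 to -0.03 in normal cells, -1.21 to -0.04 in H1 and -0.29 to 0.25 in H2. For the Gapdh control probe sets it was larger, at 1.55 to 3.25 in normal cells, 2.26 to 2.94 in H1 and 2.66 to 4.58 in H2. The Gapdh difference was not used as a covariate. Alveolar type 2 cell markers are given by level only, as the sources hold no detection call. Their mean level was 4.69 to 9.48 on normal arrays, 7.45 to 9.04 in H1 and 8.18 to 9.69 in H2.

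Itga8, the alpha subunit that pairs with Itgb1 and binds the RGD motif of nephronectin and fibronectin, was the one member called in any comparison. It is known as an integrin of fibroblasts, smooth muscle and other mesenchymal cells. On the 8 normal arrays its level had a lowest value of 7.36, a median of 8.27 and a highest value of 9.07. In H1 the levels were 7.62 in replicate 2, 5.61 in replicate 3 and 6.55 in replicate 4. In H2 they were 4.28 in replicate 1, 6.13 in replicate 5, 5.88 in replicate 6 and 4.47 in replicate 7. All 4 H2 lesions therefore lay below every normal array, H1 replicates 3 and 4 did too, and H1 replicate 2 lay within the normal range.

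Itga8 fell in H2 by 3.06 ± 0.42 (SE) on the log2 scale, an 8.34-fold lower level (limma adjusted p = 0.0028). The mean was 8.25 ± 0.55 (SD, n = 8) in normal cells and 5.19 ± 0.95 (SD, n = 4) in H2. Over all 7 lesions it fell by 2.46 ± 0.42 (SE), or 5.49-fold (limma adjusted p = 0.0267). This call over all lesions was lost without any 1 of 7 arrays, namely normal replicates 4, 5 and 7, H1 replicate 3 and H2 replicates 5, 6 and 7, with a difference of -2.51 to -2.24 and an adjusted p of at most 0.0636 in those fits. Over all 15 arrays left out in turn the difference ran from -2.76 to -2.21. The H2 call held without each array in turn, at -3.37 to -2.76.

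In H1 the Itga8 mean was 6.59 ± 1.01 (SD, n = 3), a difference of -1.66 ± 0.47 (SE) from normal. It was not called, at a limma p of 0.00281 and an adjusted p of 0.997. The direct contrast put H1 above H2 by 1.40 ± 0.53 (SE), and this did not pass either (limma adjusted p = 0.342). It was 0.889 without H1 replicate 2 and 0.94 with array weights. A lower Itga8 level was thus called for H2 and for the lesions as a whole, and no difference between H1 and H2 was called.

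The array holds a second Itga8 probe set with lower values and a wider spread. It read 3.38 to 6.72 on normal arrays, 3.94, 3.77 and 4.58 in H1 replicates 2, 3 and 4, and 2.84, 4.72, 2.79 and 3.46 in H2 replicates 1, 5, 6 and 7. Its differences from normal were -1.80 over all lesions, -1.44 in H1 and -2.08 in H2, the same direction as the first probe set in each. It passed in none of them when all probe sets were tested (limma adjusted p = 0.147, 0.998 and 0.0692).

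**Figure D1:**
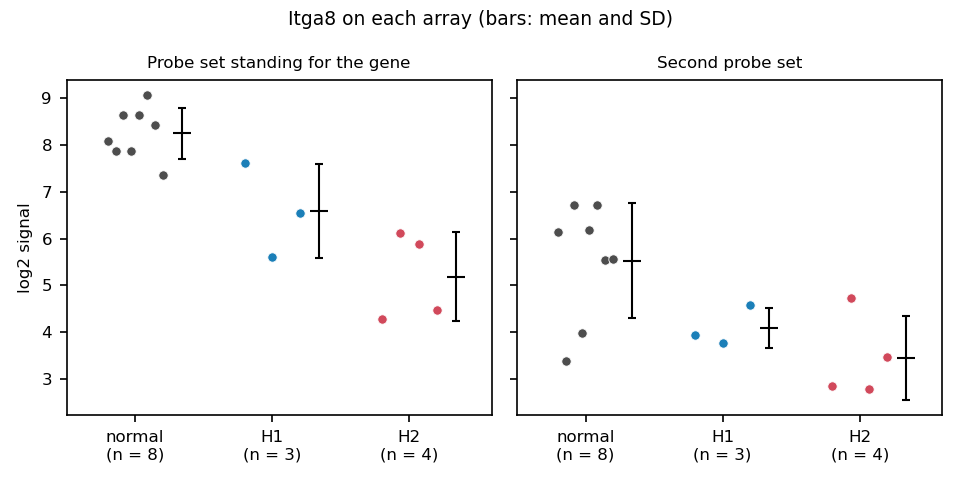
Log2 level of Itga8 (vertical axis) on each of the 15 arrays, grouped as normal, H1 and H2, for both probe sets; points are arrays and bars are mean ± SD. For the first probe set, the 4 H2 points lie at 4.28 to 6.13, all below the lowest normal array at 7.36.

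Markers of the alveolar fibroblast, a cell type known for Itga8, were set beside it. In tissue cut out in bulk, fewer cells of a type and less RNA per cell cannot be told apart. Of the 12 markers, 10 were lower and 2 higher in H2 than in normal cells, with a median difference of -0.69, and all 12 were lower in H1, with a median of -0.60. Of all genes, 46.3% were higher in H2 and 43.5% in H1, and 0.495% were called lower in H2. At an unadjusted limma p under 0.05, 6 of the 12 were lower and 0 higher in H2, where 8.7% of all genes were lower. In H1 that rule gave 1 lower and 0 higher, where 2.39% of all genes were lower. Among the 12 markers only Lrat, the enzyme that esterifies retinol for storage, fell by the test, by 1.77 ± 0.44 (SE) in H2 (limma adjusted p = 0.0378). That call was lost without normal replicate 5 or 7, H1 replicate 3 or 4, or any 1 of the 4 H2 arrays, with a difference of -1.92 to -1.53 over all 15 arrays left out in turn. It was also lost after repeated quantile normalization (limma adjusted p = 0.0713), with averaged probe sets at -1.35 (0.0705), with the Actb covariate (0.0881) and with the arrays of H2 and normal cells alone (0.0690). None of the 12 was called in H1.

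Of the other fibroblast markers, Inmt differed from normal by -1.32 in H2, the transcription factor Tcf21 by -1.04 ± 0.42 (SE; limma adjusted p = 0.174), Col13a1 by -0.83 and the growth factor receptor Pdgfra by -0.52. The 2 markers that were higher in H2, at up to 0.44, are not among those named. The mean level of the list was 4.83 to 6.68 on normal arrays, 4.97 to 5.21 in H1 and 4.62 to 5.24 in H2, so both lesion groups overlapped the normal range. RMA log2 values have no zero, so no marker can be called absent. Endothelial markers moved the same way, with 10 of 12 lower in H2 (median -0.68, none called) and 12 of 12 lower in H1 (median -0.62, none called). Their part in the Itga8 result was not tested.

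**Figure D2:**
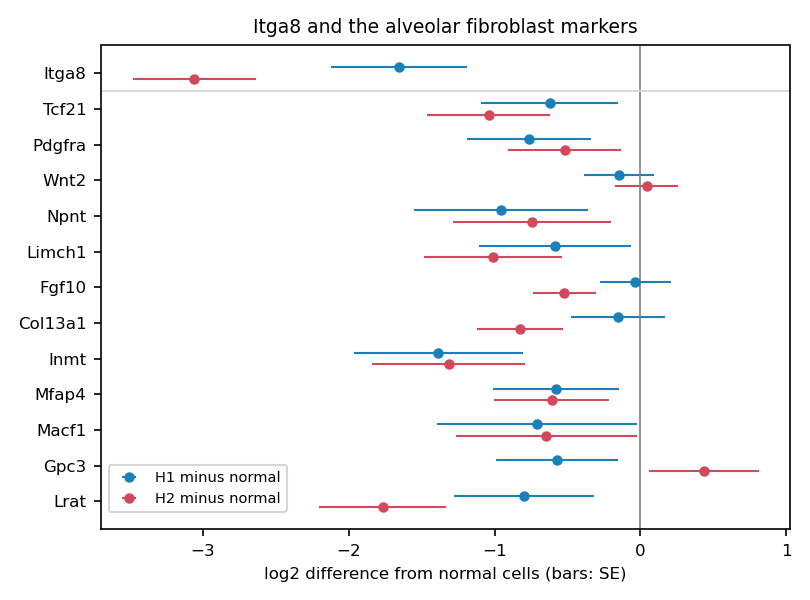
Difference from normal cells (log2, horizontal axis, with SE bars) in H1 and H2 for Itga8 and the 12 alveolar fibroblast markers. Itga8 lies at -3.06 in H2 and -1.66 in H1, and the median of the 12 markers is -0.69 in H2 and -0.60 in H1.

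Across all 34 genes, the lesions against normal cells gave 0 genes higher and 1 lower (Itga8), where 0.291% of all genes were called in either direction and 0.011% were called lower. H1 against normal gave 0 members, with 0.011% of all genes called. H2 against normal gave 0 higher and 1 lower (Itga8), where 3.38% of all genes were called and 0.495% were called lower. H1 against H2 gave 0 members, with 0.0055% of all genes called. Itga8 was also the one member whose H2 arrays all lay below all normal arrays, which 1.08% of all genes did. A count of 1 in 34 rests on that single gene and says nothing of the family.

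At an unadjusted limma p under 0.05 the members gave 1 higher and 3 lower over all lesions, where 8.1% of all genes were higher and 4.66% lower by that rule. In H1 they gave 0 higher and 2 lower, with 1.85% and 2.39% of all genes. In H2 they gave 3 higher and 3 lower, with 12.7% and 8.7% of all genes. In H1 against H2 they gave 4 higher and 1 lower, with 4.9% and 7.41% of all genes.

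The median difference over the 34 members was -0.06 for all lesions, -0.14 for H1, -0.06 for H2 and -0.19 for H1 against H2. Over all genes tested the same medians were -0.06, -0.05, -0.04 and -0.06. Leaving Itga8 aside, the differences of the 33 others in H2 ran from -1.20 (Lama5) to 1.73 (Lamb1), and 22 of the 33 were under 0.5 in size. Most integrin and laminin differences were therefore small beside that of Itga8.

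**Figure D3:**
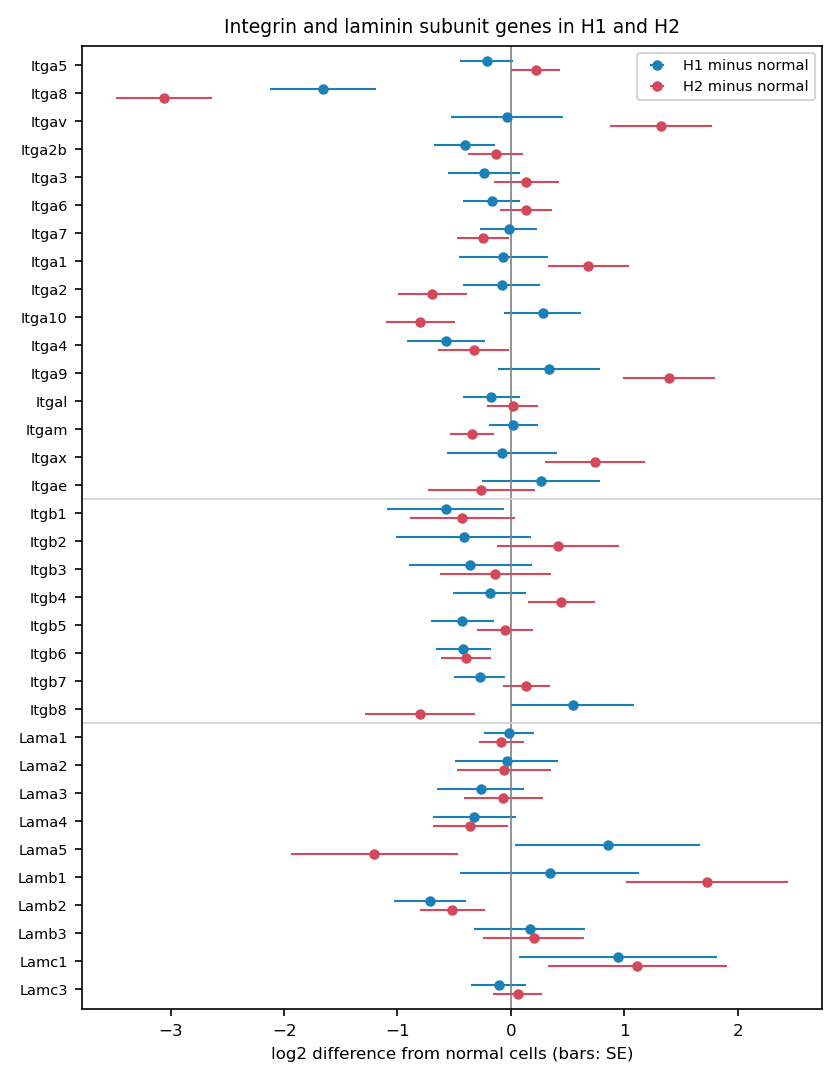
Difference from normal cells (log2, horizontal axis, with SE bars) in H1 and H2 for all 34 integrin and laminin genes, ordered by role. Itga8 lies lowest, at -3.06 in H2, and the other members in H2 lie between -1.20 and 1.73.

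None of the other 3 RGD-binding alpha subunits was called. Itgav, which pairs with several beta subunits and binds vitronectin, fibronectin and latent TGF-beta, had a lowest normal level of 5.11, a median of 7.07 and a highest of 7.88. It read 5.85, 7.19 and 7.19 in H1 replicates 2, 3 and 4, and 7.28, 8.19, 8.71 and 8.23 in H2 replicates 1, 5, 6 and 7. Of the H2 arrays, 3 lay above all normal arrays and replicate 1 lay within their range. The difference in H2 was 1.33 ± 0.45 (SE; limma adjusted p = 0.108), and in H1 -0.03.

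The 5 probe sets of Itgav did not move together in H2, at 1.33, 0.48, -0.01, -0.28 and -0.36. Itga5, the classical fibronectin receptor subunit, differed from normal by -0.21 in H1 and 0.22 in H2. Its 4 probe sets ran from -0.63 to 0.32 in H2. Itga2b, the alpha subunit of the platelet fibrinogen receptor, differed by -0.41 and -0.14. Platelet markers had a median difference of -0.52 in H2, with none called.

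Itgb1, the beta subunit that Itga8 needs to reach the cell surface, read 5.96 at the lowest, 6.99 at the median and 8.39 at the highest on normal arrays. The lesions read 6.52, 5.99 and 6.72 in H1 replicates 2, 3 and 4, and H2 replicates 1, 5, 6 and 7 read 5.04, 6.68, 6.80 and 7.71. The lesions overlapped the normal arrays, with H2 replicate 1 alone below them. Itgb1 differed by -0.58 ± 0.51 (SE) in H1 and -0.43 ± 0.46 (SE) in H2, and was called in neither. Its 6 probe sets ran from -1.68 to 0.45 in H2, so neither a change nor its absence can be read from them.

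None of the 3 laminin-binding alpha subunits was called. Itga3 and Itga6, which hold epithelial cells to the basement membrane, differed by -0.24 and -0.17 in H1 and by 0.14 and 0.13 in H2. Itga7, best known from muscle, differed by -0.02 and -0.24. Itgb4, the partner of Itga6 in hemidesmosomes, differed by -0.19 in H1 and 0.45 in H2 and was not called either.

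Among the collagen-binding alpha subunits, Itga10, known from cartilage, read 3.07 at the lowest, 4.17 at the median and 4.89 at the highest on normal arrays. H1 replicates 2, 3 and 4 read 4.55, 4.06 and 4.18, and H2 replicates 1, 5, 6 and 7 read 3.75, 2.84, 3.30 and 2.84. Every H1 array thus lay above every H2 array. The H1 minus H2 difference was 1.08 ± 0.38 (SE; limma adjusted p = 0.333), and H2 differed from normal by -0.80 ± 0.31 (SE; limma adjusted p = 0.152). Itga2 differed by -0.08 in H1 and -0.69 ± 0.30 (SE) in H2 (limma adjusted p = 0.201), and Itga1 by -0.07 and 0.68 ± 0.36 (SE), neither of them called. The second Itga1 probe set gave -0.64 in H1 and -0.26 in H2.

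Itga9, a receptor for tenascin C and other matrix proteins that is found on smooth muscle, endothelium and neutrophils, read 5.24 at the lowest, 5.88 at the median and 6.83 at the highest on normal arrays. H1 replicates 2, 3 and 4 read 5.58, 6.67 and 6.56, within the normal range. H2 replicates 1, 5, 6 and 7 read 5.85, 7.17, 8.12 and 8.16, of which the last 3 lay above every normal array. The difference in H2 was 1.40 ± 0.41 (SE; limma adjusted p = 0.0687) and over all lesions 0.94 ± 0.38 (SE; limma adjusted p = 0.312). Without H2 replicate 1, or without normal replicate 3, Itga9 passed the threshold in H2. Its 3 probe sets ran from -0.05 to 1.40 there.

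The leukocyte subunits showed no call. Itgal, Itgam and Itgax, which pair with Itgb2 on lymphocytes and myeloid cells, differed in H2 by 0.01, -0.34 and 0.74 ± 0.44 (SE), and Itgb2 itself by 0.41. Itga4, which pairs with Itgb1 or Itgb7 for homing, differed by -0.33, and Itgae, which with Itgb7 binds E-cadherin on epithelium, by -0.26. In H1 these 6 differed by -0.17, 0.02, -0.08, -0.42, -0.57 and 0.27. Macrophage markers had a median difference of 0.76 in H2, lymphocyte markers -0.20 and neutrophil markers 0.05, with none called, and their part in these values was not tested.

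Of the remaining beta subunits, Itgb6 and Itgb8 form the alphav dimers known to activate TGF-beta in epithelium and other cells. Itgb6 read 3.12 at the lowest, 3.34 at the median and 4.00 at the highest on normal arrays. It read 2.74, 3.29 and 3.13 in H1 replicates 2, 3 and 4, and 2.82, 3.50, 2.77 and 3.22 in H2 replicates 1, 5, 6 and 7. The groups overlapped, and the difference over all lesions was -0.41 ± 0.18 (SE; limma adjusted p = 0.360). A second Itgb6 probe set gave -0.03 over all lesions, and 0.32 in H2 where the first gave -0.40.

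Itgb8 read 1.90 at the lowest, 3.50 at the median and 5.14 at the highest on normal arrays. It read 3.97, 4.08 and 3.86 in H1 replicates 2, 3 and 4, and H2 replicates 1, 5, 6 and 7 read 3.22, 3.09, 2.16 and 2.05. All H1 arrays lay above all H2 arrays, both within the normal range. The H1 minus H2 difference was 1.34 ± 0.61 (SE; limma adjusted p = 0.390). Itgb3, which pairs with Itga2b on platelets and with Itgav, differed from normal by -0.36 in H1 and -0.14 in H2. Itgb5 differed by -0.43 and -0.05, and Itgb7 by -0.28 and 0.14.

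None of the 10 laminin chains was called in any of the 4 comparisons. Lama5, the main laminin alpha chain of the adult alveolar basement membrane, read 3.52 at the lowest, 7.30 at the median and 7.86 at the highest on normal arrays. In H1 replicates 2, 3 and 4 it read 7.62, 7.44 and 7.09, and in H2 replicates 1, 5, 6 and 7 it read 6.21, 6.01, 5.65 and 3.44. H1 and H2 did not overlap, while normal arrays spanned nearly the whole range of both. H1 lay above H2 by 2.06 ± 0.92 (SE; limma adjusted p = 0.387), and the 3 probe sets of Lama5 ran from -0.85 to 2.06 in that contrast.

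The other alpha chains differed less in H1 and H2. Lama1, an embryonic chain, differed by -0.01 and -0.08, Lama2, typical of muscle and mesenchyme, by -0.04 and -0.06, and Lama4, a vascular chain, by -0.32 and -0.36. Lama3, which with Lamb3 is part of the epithelial laminin that anchors hemidesmosomes, read 3.56, 4.52 and 5.12 as the lowest, median and highest normal level. It read 3.65, 4.19 and 4.85 in H1 replicates 2, 3 and 4 and 4.55, 3.36, 4.49 and 5.30 in H2 replicates 1, 5, 6 and 7, a difference of -0.07 ± 0.35 (SE) in H2. The second Lama3 probe set gave -0.52 in both H1 and H2.

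Lamb1, the widespread laminin beta chain, read 3.07 at the lowest, 5.62 at the median and 7.88 at the highest on normal arrays. H1 replicates 2, 3 and 4 read 6.11, 6.12 and 5.46, and H2 replicates 1, 5, 6 and 7 read 6.71, 8.10, 6.74 and 7.59. The H2 arrays were all above the H1 arrays and only replicate 5 was above all normal arrays. The difference in H2 was 1.73 ± 0.72 (SE; limma adjusted p = 0.179), positive in 3 of 4 probe sets.

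Lamb2, the beta chain of vascular and neuromuscular basement membranes, read 4.97, 5.19 and 6.27 as the lowest, median and highest normal level. Levels in H1 replicates 2, 3 and 4 were 5.29, 3.69 and 4.81, and H2 replicates 1, 5, 6 and 7 read 4.74, 4.49, 5.04 and 4.92. Most lesions lay under the normal arrays, but H1 replicate 2 and H2 replicate 6 did not. The difference over all lesions was -0.60 ± 0.24 (SE; limma adjusted p = 0.307).

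Lamb3 read 3.60, 4.62 and 5.12 as the lowest, median and highest normal level. H1 replicates 2, 3 and 4 read 4.81, 4.88 and 4.30, and H2 replicates 1, 5, 6 and 7 read 3.86, 3.74, 4.52 and 6.67. H2 replicate 7 alone lay above the normal range, and the H2 difference was 0.20 ± 0.44 (SE; limma adjusted p = 0.831). Lamc1, the gamma chain common to most laminins, differed by 0.95 ± 0.87 (SE) in H1 and 1.12 ± 0.79 (SE) in H2, while its second probe set gave -0.88 and 0.41. Lamc3 differed by -0.11 and 0.06.

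**Figure D4:**
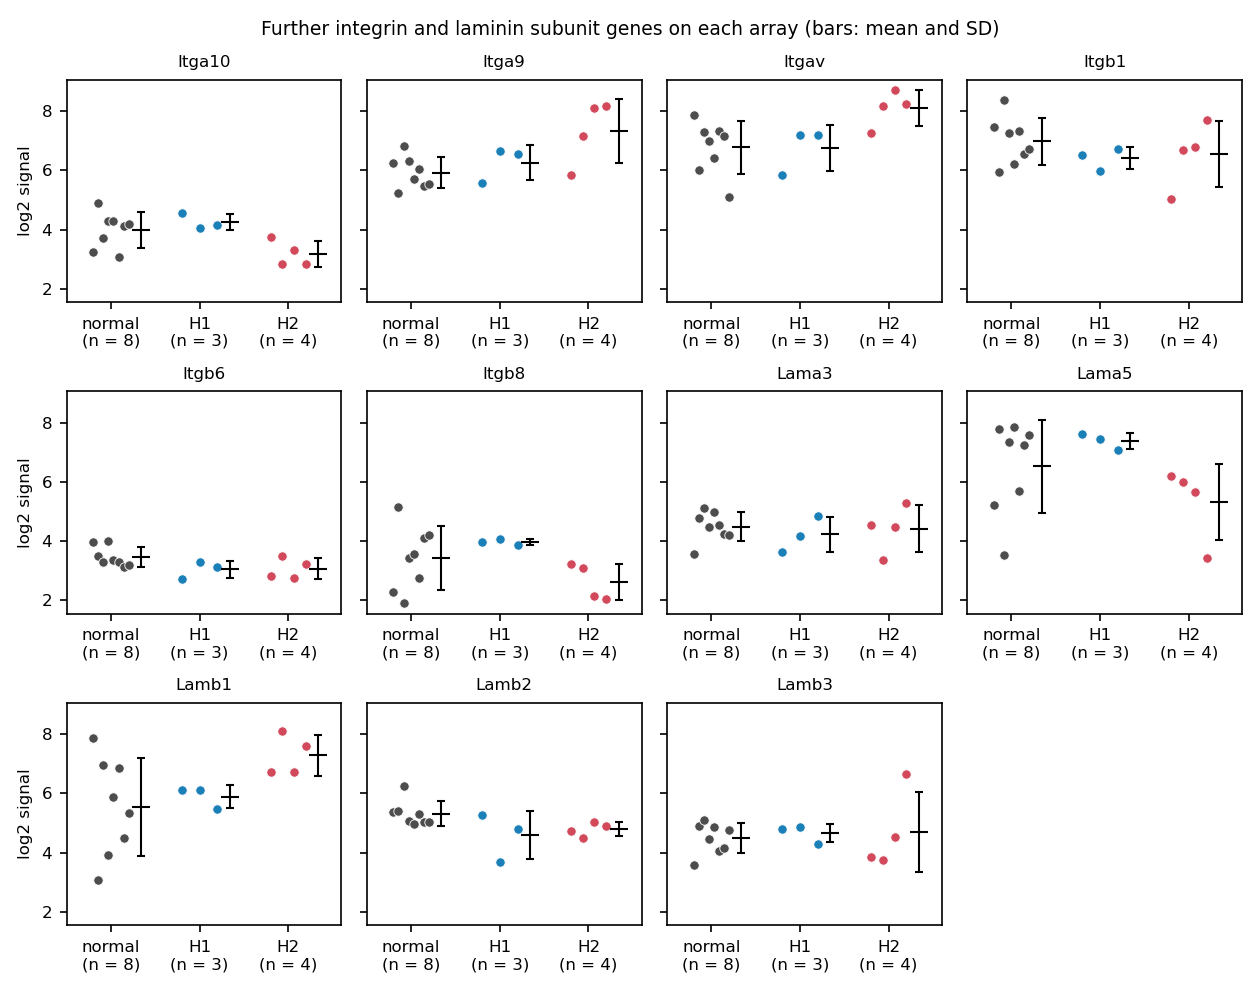
Log2 level (vertical axis) on each of the 15 arrays for 11 further integrin and laminin genes, grouped as normal, H1 and H2, with bars at mean ± SD. Normal arrays run from 3.52 to 7.86 for Lama5 and from 3.07 to 7.88 for Lamb1, while for Lamb2 most lesions lie under the lowest normal array at 4.97.

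Several of the larger uncalled differences moved with the spread of the arrays. Lama5 and Itgb8 were low on arrays of wide spread, at 3.52 and 1.90 on normal replicate 3 (spread 1.67) and at 3.44 and 2.05 on H2 replicate 7 (spread 1.78). With the spread as a covariate, the H2 difference of Lama5 turned from -1.20 to 0.88 and that of Itgb8 from -0.80 to 0.60. Under the same covariate the H2 differences of Lamb1, Itga9 and Itgav went from 1.73, 1.40 and 1.33 to 0.17, 0.44 and 0.25.

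For Itga8, on the normal arrays of widest spread, replicates 1, 3 and 6 (spread 1.55, 1.67 and 1.51), the levels were 8.10, 8.65 and 9.07, against at most 6.13 on the H2 arrays, whose spread was 1.52 to 1.78. With the spread as a covariate Itga8 fell in H2 by 3.32 (limma adjusted p = 0.0074) and over all lesions by 2.34 (limma adjusted p = 0.0357). With the Actb difference as a covariate it fell in H2 by 3.12. The spread was 1.14 to 1.67 over all normal arrays and 1.52 to 1.78 in H2, so group and spread cannot be fully told apart here.

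**Figure D5:**
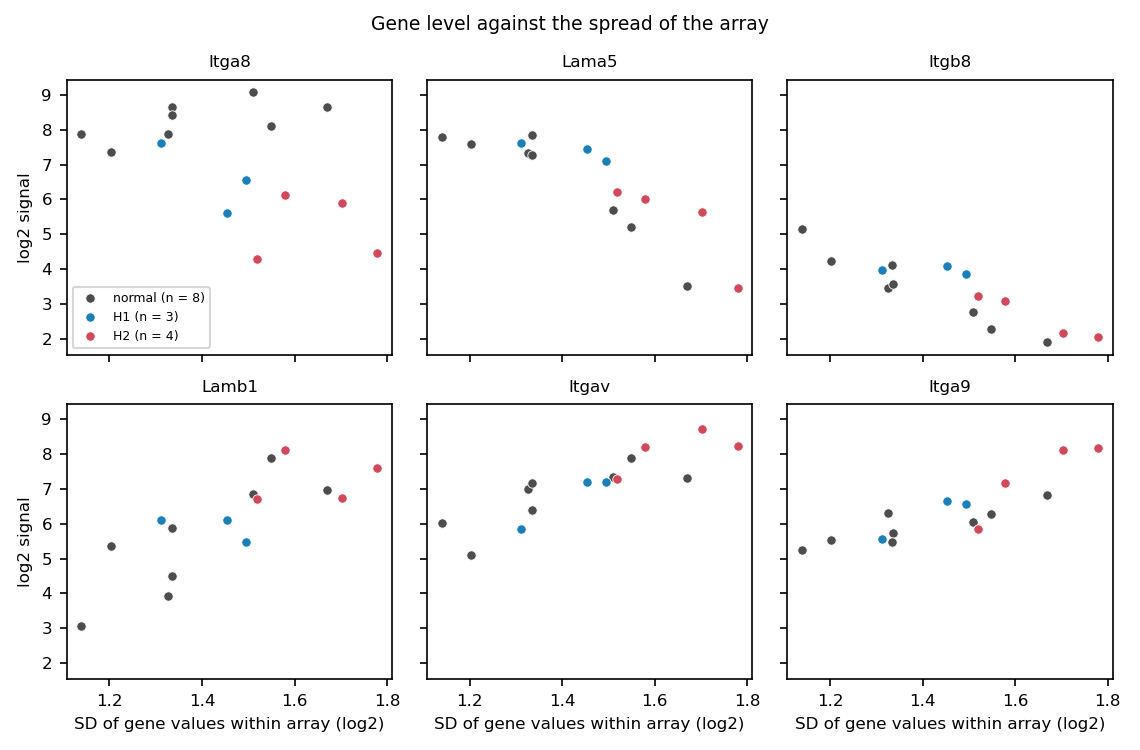
Log2 level (vertical axis) against the standard deviation of gene values within the array (horizontal axis) for Itga8, Lama5, Itgb8, Lamb1, Itgav and Itga9, with each point an array marked as normal, H1 or H2. At spreads of 1.51 and above, Itga8 is at 8.10 or higher on the normal arrays and at 6.13 or lower on the H2 arrays.

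H1 and H2 were also set against each other directly. Their values did not overlap for 9 of the 34 genes, where 18.2% of all genes did not overlap in these arrays. Itga10, Itgb8 and Lama5 lay higher in H1 (8.1% of all genes), and Itga1, Itga2b, Itga5, Itgav, Itgb4 and Lamb1 lay higher in H2 (10.1% of all genes). None passed the test. Itga5, Itgav and Lama5 had probe sets of both signs in this contrast, with those of Itga5 at -0.43 to 0.52. For Itga2b the highest H1 array read 4.17 and the lowest H2 array 4.20. H1 arrays had the narrower spread, 1.31 to 1.49 against 1.52 to 1.78, so subtype and spread cannot be told apart for these genes.

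The other genes of the adhesion system were taken from 4 lists. In H2, 525 of all 18193 genes were called higher and 90 lower. Of 18 integrin ligands and basement membrane partners, 1 rose in H2 and none fell, with a median difference of 0.55, and none was called in the other 3 comparisons. The gene that rose was Egfl6, a secreted protein with an RGD motif that binds alpha8, by 1.94 ± 0.46 (SE), from a mean of 5.54 to 7.48 (limma adjusted p = 0.0337). With the spread as a covariate its difference was 1.32 and it was no longer called (limma adjusted p = 0.290). It passed in 5 of 11 other settings, and was also lost after repeated quantile normalization (limma adjusted p = 0.0635), with the replicate block (0.121), with the Actb covariate (0.133), without the 2 normal arrays of narrowest spread (0.0781) and with the arrays of H2 and normal cells alone (0.0581). It was not called without normal replicate 4, 5 or 8 or H2 replicate 6 or 7 either, at 1.52 to 2.41 over all arrays left out in turn. Fibronectin (Fn1) differed by 1.36 ± 0.39 (SE; limma adjusted p = 0.0685), the collagen IV chain Col4a2 by 0.85 and the laminin linker Nid1 by 1.34, none of them called.

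Npnt, nephronectin, the ligand best known for Itga8, differed by -0.96 ± 0.60 (SE) in H1 and -0.74 ± 0.54 (SE) in H2, and was not called. Of 7 genes of TGF-beta and the family named latent TGF-beta binding proteins, 2 rose in H2 and none fell. Of all 18193 genes, 525 rose and 90 fell. The median difference of the 7 was -0.28. Ltbp2 rose by 1.84 ± 0.36 (SE; limma adjusted p = 0.0161) and Ltbp3 by 2.05 ± 0.44 (SE; limma adjusted p = 0.0221). Both belong to that family by name, and binding of TGF-beta was not measured. With the spread as a covariate neither was called, at 1.46 and 1.09 (limma adjusted p = 0.134 and 0.252), nor with the replicate block (0.144 and 0.143) or the Actb covariate (0.0912 and 0.131). Ltbp3 was also not called after repeated quantile normalization, at 1.16 (limma adjusted p = 0.144), and with its probe sets averaged its difference was 0.43 (limma adjusted p = 0.252). Ltbp2 was not called without H2 replicate 7, nor Ltbp3 without H2 replicate 1, 6 or 7. Tgfb2 differed in H1 by -1.13 ± 0.53 (SE), which did not pass.

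Of 20 integrin activators and adhesion complex genes, none was called in any comparison, and the median in H2 was 0.16. Among them the kindlin Fermt2, which switches integrins on from inside the cell, was lower in H1 than in H2 by a difference of -1.42 ± 0.47 (SE; limma adjusted p = 0.319), the talin Tln2 differed by -0.70 in H2 and the tetraspanin Cd151 by 1.12 over all lesions. Of 7 hemidesmosome genes and other laminin receptors, none was called and none had an unadjusted limma p under 0.05 in any comparison. Their median in H2 was 0.04.

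Marker lists of the other cell types were read in the same arrays, where 525 of all 18193 genes were called higher in H2 and 90 lower. By sign alone, 46.3% of all genes were higher in H2 and 43.5% in H1. All 9 alveolar type 2 markers were higher in H1 and H2 than in normal cells, with medians of 1.34 and 2.22. Among them the lipid transporter Abca3 alone rose by the test in H2 (limma adjusted p = 0.0249). All 7 general epithelial markers were higher in H2, with a median of 1.88 and 3 called (lowest limma adjusted p = 0.00753). Alveolar type 1 markers had a median of -0.20 in H2, smooth muscle and pericyte markers -0.08 and mesothelial markers -0.04, with none called. Single markers differed more than these medians. Smooth muscle and pericyte markers ran from -0.59 to 2.86 in H2, with 7 of 8 lower and 1 higher (lowest limma adjusted p = 0.0730). Alveolar type 1 markers ran from -1.58 to 1.79, with 4 lower and 4 higher. Airway markers had a median of 0.06 with 1 called higher (limma adjusted p = 0.0308). For these epithelial, type 2 and airway calls the other settings are not given here. With the spread covariate, 57 of all genes were called higher in H2 and 98 lower, so such calls can depend on the setting. The integrin and laminin genes of epithelial adhesion, Itga3, Itga6, Itgb4, Itgb6, Lama3 and Lamb3, were not called in H1 or H2.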

How the data were processed

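The authors' deposited log2 values, made with RMA in the affy package per the submitters' processing notes, were used as given. No version, genome build or detection call is given in the sources used here. RNA was amplified before labelling, per the labels' protocols, which can narrow or widen the range of values between arrays. Of 45101 probe sets, 64 are controls, 34945 name 1 gene, 932 several and 9160 none. The probe set with the highest mean stood for a gene. All 34 gene IDs matched the RefSeq table of GRCm38.p6 and no symbol changed. limma 3.58.1 (R 4.3.3) was fitted across 18193 genes, once with lesions and normal cells and once with H1, H2 and normal cells, and was tested on simulated data. The number of arrays limits the precision. The labels call the samples biological replicates without naming animals.

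The members, lists, covariates and the rule for naming genes were chosen with earlier results of these data known. Array values are given for Itga8, any member called, up to 4 further members per comparison with the lowest unadjusted p under 0.05, Itgb1, and Lama3 and Lamb3. Up to 4 genes of other lists were named by lowest p, and for some marker lists no gene is named. Npnt, Inmt, Col13a1 and Pdgfra were added by name where that rule does not reach them, and Npnt is in 2 lists. Alternatives were centring, quantile normalization run again, only genes above the median level, averaged probe sets, another prior, array weights, a replicate block, the spread and Actb covariates, and leaving out arrays.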

Additional observations from a re-analysis of the deposited data

Results flagged for a closer look

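Single arrays stood apart from the rest of their group in 3 of the 68 sets of values checked, which are the 34 genes in normal cells and in H2. Chance gives about 1 in 20. Itga2b was highest in H2 replicate 5, at 4.51, where the 3 other H2 arrays all held 4.20. Normal replicates 2 and 8 held that same value. The mean of Itga2b over all arrays, 4.30, was below the median of gene means, 4.38. Itgam was highest in normal replicate 6, at 4.40, with the next array at 4.17. Lamb2 was highest in normal replicate 3, at 6.27, with the next array at 5.42.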

How the results depend on the processing

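The number of arrays, 3 in H1, limits what can be called, and the fit over all lesions rests on single arrays as given above. The count of members called stayed at 1 over all lesions and at 0 in H1 and in H1 against H2 under every other setting, and at 1 in H2 except under array weights, where it was 4. There Itga8 was joined by Itga9 at 1.77 (limma adjusted p = 0.00749), Itgav at 1.49 (limma adjusted p = 0.0278) and Itga10 at -0.85 (limma adjusted p = 0.0465). Leaving out 1 array at a time gave 0 to 1 over all lesions and 1 to 2 in H2. Itga8 in H2 ran from -3.50 to -2.57 over the other settings and was called in all 11. Whether the titles' numbers pair the samples is not known. The correlation of deviations between same-numbered arrays ran from -0.14 to 0.38, which cannot settle it with so few arrays. With the replicate block Itga8 was -2.59 over all lesions (limma adjusted p = 0.0345), -3.37 in H2 (limma adjusted p = 0.0385), -1.54 in H1 and 1.83 in H1 against H2, and the counts of members called did not move. The count of all genes called in H2, 525 higher and 90 lower, was 34 higher and 5 lower with that block, 1586 and 613 with array weights, 57 and 98 with the spread covariate and 74 and 18 with the Actb covariate.

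Of 44 differences of the named members other than Itga8, 18 changed sign in another setting, none past the threshold, and the cause was not tested. Over all lesions the spread covariate gave Itga10 0.18, Itgav -0.0088, Itgb8 0.68 and Lama5 1.04, the Actb covariate Itgb8 0.11 and Lama5 0.22, and leaving out the 2 narrowest normal arrays Itgb8 0.19 and Lama5 0.066. In H1 the block gave Itga10 -0.047 and Lamb3 -0.16, the 2 narrowest arrays left out gave Lamb1 -0.11, and averaged probe sets gave Itgb1 0.030. Itgav in H1 was 0.022 when centred, 0.0013 with averaged probe sets, 0.18 with array weights and 0.0067 with the Actb covariate. In H2 the spread covariate gave Itgb8 0.60 and Lama5 0.88, and Lama3 was 0.019 centred, 0.031 with array weights, 0.094 with the block and 0.031 with the Actb covariate. In H1 against H2 Itgb1 was 0.34 after repeated quantile normalization, 0.31 with averaged probe sets, 0.81 with the spread covariate and 0.27 with the Actb covariate. There Itgb6 was 0.12 with array weights and 0.054 with the spread covariate, Lama3 0.023, Lamb2 0.054 and Lamb3 0.13 with the spread covariate, Lamb3 0.12 after repeated quantile normalization, and Lamb1 0.24 with the block.

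Leaving out 1 array at a time also turned the sign of 15 of the 44. Over all lesions the ranges were -0.44 to 0.020 for Itgb8, -0.31 to 0.010 for Lama3, -0.75 to 0.14 for Lama5 and -0.15 to 0.34 for Lamb3. In H1 they were -0.27 to 0.42 for Itgav, -0.58 to 0.024 for Lama3 and -0.014 to 0.67 for Lamb1, and in H2 -0.81 to 0.077 for Itgb1, -0.36 to 0.29 for Lama3 and -0.46 to 0.52 for Lamb3. In H1 against H2 they were -0.65 to 0.24 for Itgb1, -0.14 to 0.14 for Itgb6, -0.55 to 0.094 for Lama3, -0.54 to 0.26 for Lamb2 and -0.35 to 0.62 for Lamb3. The filter on dim genes leaves no value for Itga10, Itgb6 and Itgb8.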
